A study of Mus musculus with 24 samples.

Results

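The RNA of 10 mouse genes for cathepsins, legumain and cystatin inhibitors was followed in CD8+ T cells before and after activation in culture. The proteases were cathepsins W, B, C, D, L, S and Z (Ctsw, Ctsb, Ctsc, Ctsd, Ctsl, Ctss and Ctsz) and legumain (Lgmn), and the inhibitors were cystatin C (Cst3) and cystatin F (Cst7). These genes were taken by name from the deposited gene tables, where all 10 were found among 23420 genes, and all 10 passed the filter on low counts that left 11470 genes for testing.

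The 24 libraries came from 6 mice, each sampled at 0, 4, 8 and 24 h, which gives 8 groups of 3 libraries. Mice 1 to 3 carried the E8i-cre transgene, 2 floxed Tcf7 alleles (Tcf7FL/FL) and the OT-I T cell receptor transgene, and are labelled cKO. Mice 4 to 6 carried the same floxed alleles and the same receptor but no cre, and are labelled WT, so that loss of Tcf7 and presence of the transgene cannot be told apart. E8i is an enhancer of the Cd8a locus, which directs the recombinase to mature CD8 T cells, and Tcf7 encodes the transcription factor TCF1. CD8 microbeads were used to take the cells from spleen and lymph node, and cells were sampled at once (0 h) or first activated on a surface coated with 1 ug/mL anti-CD3 and anti-CD28 with murine IL2 at 6 ng/mL. Each library was made from 1000 sorted cells with the Smart-seq2 protocol. The sources used here do not give the animals' age.

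Libraries held 5846265 to 9700397 expected counts and 13659 to 17168 detected genes. Gene-level Tcf7 RNA, which does not show whether the floxed part was removed, in cKO libraries was 681 to 719 TPM at 0 h and 35.7 to 38.3 TPM after 24 h, against 499 to 567 TPM and 62.6 to 77.0 TPM in WT libraries. On the first principal component of all tested genes the 4 h library of mouse 3 and the 8 h libraries of mice 2 and 5 stood apart from the others of their time, and results are also given without them where they changed a call. Summed CD8 T cell markers were 1410 to 8160 TPM, while Cd4 did not exceed 0.47 TPM, S100a8, S100a9 and Klra4 were listed at 0 in all 24 libraries, and Lyz2 was listed at 0 in 18 of 24. The macrophage marker Cd68 was above 0 in every library, at 0.5 to 5.18 TPM. The red cell marker Hba-a1 was at 0 in 18 of 24 libraries but reached 21.37 TPM. Red cell markers summed to 0.13 to 6.12 TPM in cKO and 0.12 to 0.56 TPM in WT at 0 h. At 4 h the sums were 0.5 to 21.5 and 0 to 0.14 TPM.

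Cathepsins are made as inactive precursors, and most are sorted to lysosomes and activated there at low pH. Most of the family are papain-like cysteine proteases, whereas cathepsin D is an aspartic protease and legumain cuts after asparagine and also trims cathepsin precursors. Cystatins bind and block the papain-like enzymes; cystatin C is mainly secreted, and cystatin F is made by immune cells and carried into the lysosome, where its processed form inhibits cathepsin C. In cytotoxic T cells cathepsin C has a dedicated task, the removal of an N-terminal dipeptide that turns granzyme precursors into active proteases.

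Promoter sequences are shown for 4 genes that moved in different directions after activation: Ctsd, which fell within 4 h; Ctsl, which rose and came back; Cst7, which fell and then rose; and Ctsz, which was higher at each later time. They are RefSeq sequences of GRCm38.p6, from 250 bases before to 50 bases after the start site, written 5′ to 3′ along the gene. Capitals in Ctsd and Ctsl mark the E-box letters CACGTG, which TFEB, TFE3 and MYC family factors can bind, and capitals in Cst7 mark TGTGGT, the letters of a RUNX site.
Ctsd, chr7:142387778-142388077, minus strand: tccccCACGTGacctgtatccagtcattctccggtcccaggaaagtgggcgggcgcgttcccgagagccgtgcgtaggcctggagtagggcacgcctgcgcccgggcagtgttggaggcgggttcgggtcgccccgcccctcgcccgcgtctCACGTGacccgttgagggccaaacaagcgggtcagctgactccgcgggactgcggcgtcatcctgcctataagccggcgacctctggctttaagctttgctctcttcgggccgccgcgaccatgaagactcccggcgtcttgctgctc
Ctsl, chr13:64370471-64370770, minus strand: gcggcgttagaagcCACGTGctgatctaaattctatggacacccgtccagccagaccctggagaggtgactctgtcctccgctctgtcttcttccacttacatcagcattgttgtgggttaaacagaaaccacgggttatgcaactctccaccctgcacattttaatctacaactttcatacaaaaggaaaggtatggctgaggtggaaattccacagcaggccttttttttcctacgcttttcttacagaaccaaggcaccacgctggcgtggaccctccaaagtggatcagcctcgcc
Cst7, chr2:150570165-150570464, plus strand: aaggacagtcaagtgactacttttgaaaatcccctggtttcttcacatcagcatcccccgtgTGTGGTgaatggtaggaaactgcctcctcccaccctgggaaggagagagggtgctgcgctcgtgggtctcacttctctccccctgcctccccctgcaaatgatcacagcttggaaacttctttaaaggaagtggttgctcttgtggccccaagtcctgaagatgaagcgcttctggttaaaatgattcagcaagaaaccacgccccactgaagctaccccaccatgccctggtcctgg
Ctsz, chr2:174438990-174439289, minus strand: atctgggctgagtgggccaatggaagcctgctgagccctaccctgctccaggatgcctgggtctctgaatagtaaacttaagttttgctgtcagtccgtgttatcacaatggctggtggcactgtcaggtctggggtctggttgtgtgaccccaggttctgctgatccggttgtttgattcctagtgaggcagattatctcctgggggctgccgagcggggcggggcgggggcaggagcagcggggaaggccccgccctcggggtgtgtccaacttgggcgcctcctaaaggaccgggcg
The Ctsd window held CACGTG 2 times, starting 245 and 98 bases before the start site, and the Ctsl window held it 1 time, 236 bases before. Among all 32851 RefSeq promoter windows of this length, 7.15% held this E-box. The RUNX letters, found in Cst7 188 bases before the start site, occurred in 16.8% of all windows. Lgmn has 2 windows in the table, not printed here: both held the RUNX letters, and the second also held the E-box, 49 bases before the start site. The letters CTTTGAA and the variant ending in T, CTTTGAT, to which TCF1 and LEF1 can bind, and the AP-1 letters TGACTCA were in 8.65% and 5.2% of all windows and in none of those of the 8 genes with an entry (Ctsc, Ctsd, Ctsl, Ctss, Ctsz, Lgmn, Cst3 and Cst7). CCGGAA, the ETS letters, was found in Ctsc and Cst3 and in 14.9% of all windows. Both strands were searched for each set of letters, and a match or its absence describes only these windows. Ctsw and Ctsb have no entry.

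At 0 h the family was led by Ctsw and Ctsd. In WT cells mean levels were 541 TPM for Ctsw and 396 TPM for Ctsd, then 203 for Ctss, 175 for Cst7, 149 for Cst3, 100.4 for Ctsc, 72.3 for Ctsz, 69.8 for Ctsb, 15.2 for Ctsl and 2.07 for Lgmn. In that order only Ctsz and Ctsb had overlapping libraries. By 24 h the leading genes were Cst7 (286 ± 8.33 TPM; SD, n = 3), Ctsz (251 ± 3.09), Cst3 (160.5 ± 6.62) and Ctsc (124 ± 2.18), and Ctsw had dropped to the eighth place of 10, at 44.9 ± 2.86 TPM. At 24 h in WT cells, Ctss and Ctsb had overlapping libraries and no other neighbours in the order did. The order in cKO cells at 24 h differed in that Ctsw, at 70.0 ± 10.2 TPM, stood sixth and overlapped with Ctss.

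**Figure D1:**
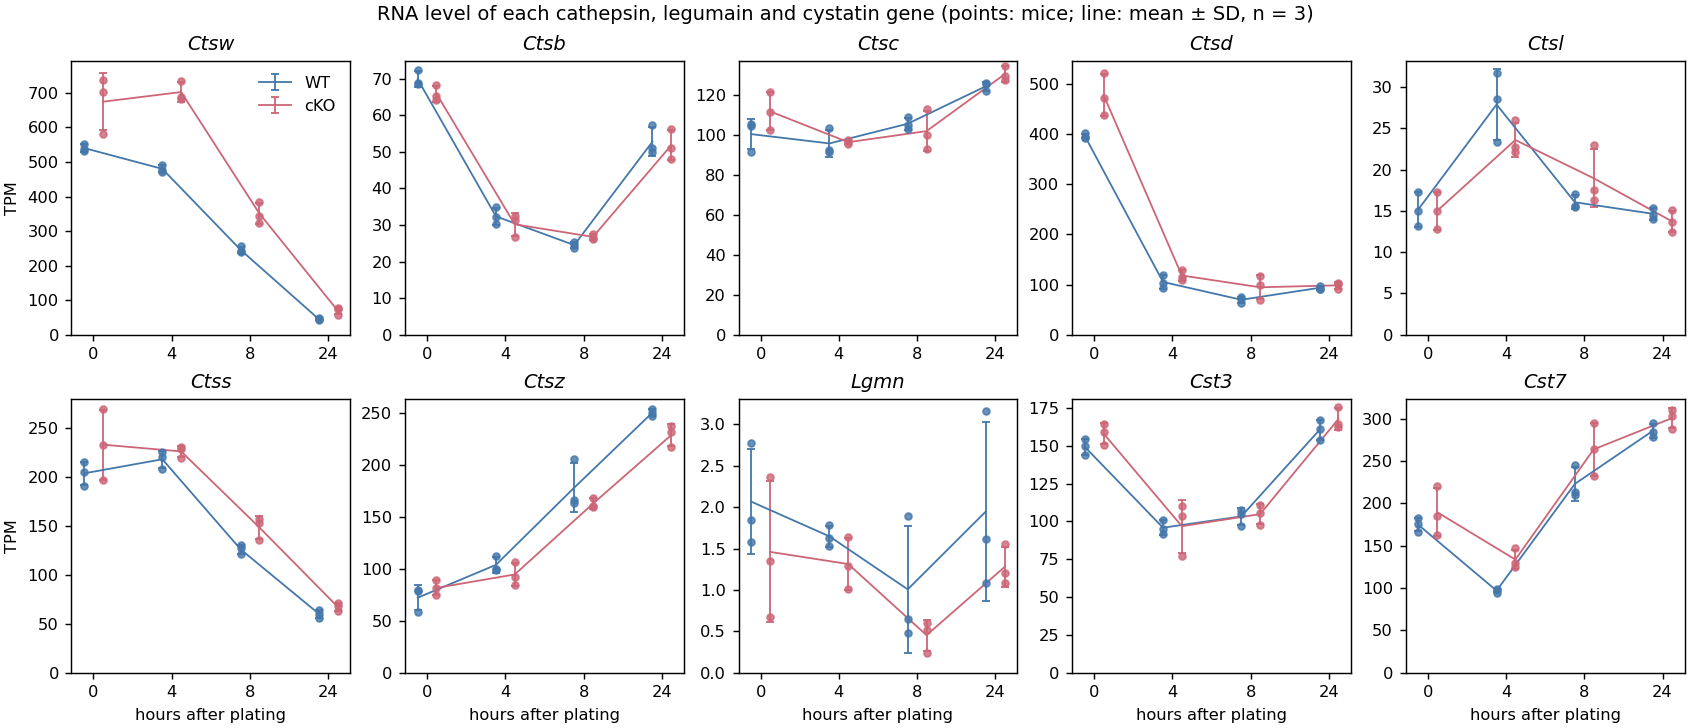
TPM (a level corrected for transcript length, with 1 sum for all libraries) of each gene, 1 panel per gene with its own axis from 0, against hours of activation drawn at equal spacing. Points are mice, lines join group means and bars are SD of 3 mice; Ctsw libraries labelled cKO sit above those labelled WT at all 4 times, while the other panels are set mainly by time.

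Ctsw, on chromosome 19 (mm10, 5465043 to 5468507, minus strand), encodes cathepsin W, a papain-like protease found in CD8 T and NK cells. At 0 h its levels in mice 1, 2 and 3 (cKO) were 738, 704 and 582 TPM, and in mice 4, 5 and 6 (WT) they were 552, 538 and 532 TPM. At 4 h they were 683, 689 and 736 TPM in cKO, against 477, 472 and 491 TPM in WT. At 8 h the cKO libraries had 385, 323 and 344 TPM against 238, 243 and 256 TPM in WT. At 24 h the values were 78.2, 73.1 and 58.5 TPM in cKO, against 47.8, 42.1 and 45.0 TPM in WT. Every cKO library was above every WT library of its time, with the cKO library of mouse 3 the nearest to WT at 0 h and at 24 h.

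The genotype difference in Ctsw passed the test at 3 of 4 times, and no other gene of the family did so at any time. The log2 fold change of cKO over WT was 0.50 (SE 0.10) at 4 h, 0.45 (SE 0.10) at 8 h and 0.64 (SE 0.11) at 24 h, which are 1.42, 1.37 and 1.56 times the WT level, with adjusted p = 0.00366, 0.0316 and 0.00185 in edgeR's quasi-likelihood test. At 0 h it was 0.29 (SE 0.10) with adjusted p = 0.312, although the libraries did not overlap; it was called with no filter on low counts (0.0289) and without mouse 3 (0.0115), and its adjusted p ran up to 0.792. So 1 of the 10 genes was higher in cKO at 4, 8 and 24 h, where 0.82%, 0.183% and 0.105% of all 11470 tested genes were called in either direction, and none was lower. None of the 10 was called by edgeR at 0 h, where 0.445% of all tested genes were. Of the 10, 2 had an unadjusted p under 0.05 there (Ctsw and Ctsd), as had 845 of all 11470 tested genes. DESeq2 and limma on TPM called none of the 10. The difference at 4 h and at 24 h was lost without mouse 5 (adjusted p = 0.0588 and 0.0597), and that at 8 h without mouse 1, 2, 4, 5 or 6 (adjusted p = 0.202, 0.0672, 0.104, 0.0983 and 0.156) and in a fit of the 8 h libraries alone (0.104); over all alternatives its adjusted p ran from 5.03e-05 to 0.0588 (4 h), 0.000719 to 0.202 (8 h) and 4.49e-06 to 0.0597 (24 h). Without the 4 h library of mouse 3 the 4 h difference was 0.49 (adjusted p = 0.0183), and without the 8 h libraries of mice 2 and 5 the 8 h difference was 0.53 (adjusted p = 0.048).

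Whether the Ctsw difference at a later time was unlike that at 0 h was tested directly. The difference of differences was 0.22 (SE 0.14) at 4 h, 0.16 (SE 0.14) at 8 h and 0.35 (SE 0.14) at 24 h, with adjusted p = 0.776, 0.765 and 1.0. None of the 10 genes was called by edgeR in these interactions or under any of the 17 alternatives, DESeq2 and limma among them, against 0.00872%, 0.00872% and 0.0174% of all tested genes. At 24 h only Ctsw had an unadjusted p under 0.05, and at 4 and 8 h no member had. Of all 11470 tested genes 816, 912 and 492 had one at 4, 8 and 24 h.

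The summed TPM of CD8 T cell markers, which was not tested, was also higher in cKO without overlap: at 0 h it was 7680 to 8160 TPM in cKO and 6950 to 7420 TPM in WT libraries, and at 24 h 1500 to 1630 and 1410 to 1470 TPM. At 0 h mean Cd8b1 was 2400 TPM in cKO and 2150 TPM in WT, but Cd8a (405 and 418) and Cd27 (325 and 329) were lower in cKO. Of the 8 markers tested, edgeR called 0, 0, 1 and 1 between genotypes at 0, 4, 8 and 24 h, and DESeq2 0, 3, 2 and 2. Of all tested genes edgeR called 0.445%, 0.82%, 0.183% and 0.105%. B cell markers summed to 41.8 to 53.3 TPM in cKO and 33.2 to 37.6 TPM in WT at 0 h, nearly all of it Cd79b, while Pax5 reached at most 0.48 TPM. NK cell markers, of interest because NK cells make cathepsin W, summed to at most 4.23 TPM in any library, with Klra4 at 0 throughout and Ncr1 at most 0.62 TPM. Their sum overlapped between genotypes at 0 h (1.08 to 4.23 TPM in cKO, 1.22 to 1.98 TPM in WT) and 8 h (0.17 to 1.26 and 0.23 to 1.19 TPM), was higher in cKO at 4 h (1.62 to 2.81 and 0.68 to 1.49 TPM) and lower in cKO at 24 h (0.13 to 0.74 and 0.75 to 1.21 TPM). The NK marker that could be tested, Klrb1c, had a log2 genotype difference of 1.80 (SE 0.73) at 4 h, which was not called (adjusted p = 0.302). The part of these markers in the Ctsw difference was not tested. In bulk libraries fewer cells of a type and less RNA per cell cannot be told apart.

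**Figure D2:**
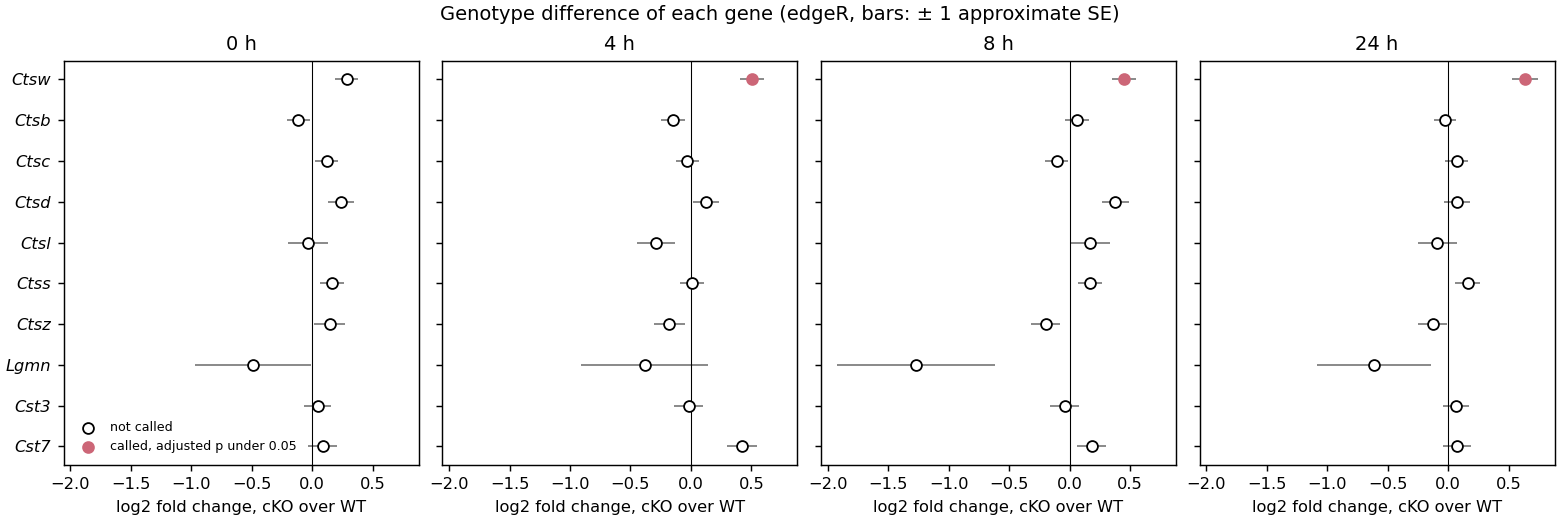
Fitted log2 fold change of cKO over WT for each gene at 0, 4, 8 and 24 h, on a shared axis, with bars of 1 approximate SE; filled points were called at an adjusted p under 0.05. Ctsw is the filled point at 4 h (0.50), 8 h (0.45) and 24 h (0.64), and Lgmn, with few counts, has the widest bars.

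In both genotypes Ctsw fell late and far. Its change from 0 to 4 h was not called in WT (-0.09, adjusted p = 0.451) or cKO (0.13, adjusted p = 0.243). By 8 h it had dropped by 0.99 (SE 0.10) on the log2 scale in WT and by 0.83 (SE 0.10) in cKO, and by 24 h its change was -3.55 (SE 0.11) and -3.20 (SE 0.11), to 0.0855 and 0.109 of the 0 h level. All 6 mice took part, with 24 h to 0 h ratios of 0.101 to 0.106 in cKO and 0.0782 to 0.0865 in WT mice. Ctss, at a lower level at 0 h, likewise fell after 4 h but less far, with a log2 change of -1.72 at 24 h in both genotypes. The 3 genes with the pattern most like Ctsw over the 24 libraries were Itgae, Neurl3 and Gimap4 (Pearson r = 0.993, 0.991 and 0.989 of log2 CPM, counts scaled by library size and TMM factor). Within the family the closest was Ctss (r = 0.985). The libraries share the 4 sampling times, so such values describe mainly a common course.

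Ctss (chromosome 3, 95526786 to 95556403, plus strand) encodes cathepsin S, a protease that stays active near neutral pH and degrades the invariant chain in antigen-presenting cells. WT libraries held 205, 215 and 191 TPM at 0 h, 220.3, 225 and 208 TPM at 4 h, 127, 121 and 129.9 TPM at 8 h, and after 24 h 56.2, 64.0 and 60.1 TPM. cKO libraries held 232, 269 and 197 TPM at 0 h, 228, 229.9 and 219 TPM at 4 h, 153, 135 and 157 TPM at 8 h, and after 24 h 70.8, 68.3 and 62.6 TPM. The 0 and 4 h levels were close to each other, and each later step down was free of overlap. The log2 change from 0 h was 0.18 (not called) at 4 h, -0.55 at 8 h and -1.72 (SE 0.10) at 24 h in WT, and 0.03 (not called), -0.54 and -1.72 (SE 0.10) in cKO. No genotype difference in Ctss passed the test, the nearest being 0.17 (SE 0.10) at 8 h, with adjusted p = 0.578 and libraries that did not overlap.

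Ctsd had the largest fall of the family at 4 and 8 h in both genotypes. It lies on chromosome 7 (142375911 to 142388038, minus strand) and encodes the aspartic protease cathepsin D, one of the main general-purpose enzymes of the lysosome. At 0 h its level was 522, 472 and 438 TPM in cKO, against 392, 395 and 401 TPM in WT mice. At 4 h it was 115, 109.6 and 129 TPM in cKO, against 92.6, 119 and 104 TPM in WT. At 8 h cKO had 116, 68.6 and 98.9 TPM and WT had 75.3, 62.7 and 70.8 TPM, and at 24 h the 6 libraries lay between 90.5 and 103 TPM. In every mouse the 0 h library was therefore far above all later ones. The WT log2 change from 0 h was -1.82 (SE 0.11) at 4 h, -2.36 (SE 0.11) at 8 h and -2.04 (SE 0.11) at 24 h, and in cKO it was -1.94, -2.22 and -2.20, all called. Between 8 and 24 h Ctsd rose in WT by 0.33 (SE 0.11, with adjusted p = 0.0108, and 0.0811 without mouse 4) and not detectably in cKO (0.02). Whether this step differed by genotype was not tested. The step from 4 to 8 h was -0.54 in WT, and -0.29 in cKO, where it was lost in 7 of 17 alternatives, among them those without mouse 2 (adjusted p = 0.36), mouse 3 (0.193) or mouse 6 (0.0591) and those without the 4 h library of mouse 3 (0.131) or the 8 h libraries of mice 2 and 5 (0.357).

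Ctsd differed by genotype in some settings only. At 0 h the cKO libraries were all above the WT libraries, with a log2 difference of 0.24 (SE 0.10; adjusted p = 0.576), and at 8 h the difference was 0.38 (SE 0.11; adjusted p = 0.184) with overlap through mouse 2. The 8 h difference was called in 3 of 17 alternatives: with no filter on low counts (adjusted p = 0.019), without mouse 2 (0.0131) and without the 8 h libraries of mice 2 and 5 (0.53, adjusted p = 0.0452). Its adjusted p ran up to 0.766 over the alternatives. In the annotation 808 of the 2351 exon bases of Ctsd are shared with Gm49369, a gene on the same strand. That name is not among the deposited genes, and whether any Ctsd counts come from it was not tested.

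Ctsb and Ctsl, the other broad-range endopeptidases of lysosomes, took opposite early courses. Ctsb (chromosome 14, 63122462 to 63145923, plus strand; a cysteine protease that also trims dipeptides from protein ends) went from 68.5, 72.4 and 68.7 TPM at 0 h in WT to 34.9, 30.1 and 32.1 TPM at 4 h, 23.6, 25.4 and 24.4 TPM at 8 h, and was back at 49.9, 57.4 and 50.9 TPM after 24 h. In cKO it went from 68.4, 64.2 and 65.2 TPM to 31.5, 26.7 and 32.4, then 27.6, 26.1 and 26.5, and then 51.1, 56.2 and 48.0 TPM. It was thus lowest at 8 h and had mostly recovered at 24 h in both genotypes. At 0 h every cKO library of Ctsb lay below every WT library. That log2 genotype difference of -0.12 (SE 0.09, adjusted p = 0.879 in edgeR) was not called, nor was that of Ctsb at a later time. Its log2 change from 0 h was -1.01, -1.35 and -0.35 at 4, 8 and 24 h in WT and -1.04, -1.17 and -0.27 in cKO, all all called; the 24 h values were no longer called with no filter on low counts (adjusted p = 0.101 in WT and 0.128 in cKO), and in cKO also not without mouse 1 or 3 (0.116 and 0.129). Ctsb shares 774 of 6051 exon bases with Fdft1 on the opposite strand, whose level rose from 12.7 TPM at 0 h to 26.2 TPM at 24 h in WT. The sources used here give no strand setting for the counting, so reads of the 2 genes may not be separated there.

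Ctsl (chromosome 13, 64359337 to 64370890, minus strand) encodes cathepsin L, which processes the invariant chain in thymic epithelium and many proteins elsewhere. WT libraries held 17.3, 15.0 and 13.2 TPM at 0 h, 31.8, 28.6 and 23.3 TPM at 4 h, 15.5, 17.03 and 15.6 TPM at 8 h, and after 24 h 14.5, 14.0 and 15.4 TPM. cKO libraries held 17.3, 15.0 and 12.8 TPM, then 22.1, 25.9 and 22.7, then 22.9, 16.4 and 17.6, and 15.1, 13.7 and 12.5 TPM. All 6 mice were highest at 4 h except cKO mouse 1, whose 8 h level was 22.9 TPM. The rise from 0 to 4 h was 0.98 (SE 0.16) on the log2 scale in WT and 0.73 (SE 0.16) in cKO, both called, and the levels at 24 h were back at -0.00 and -0.06. In WT the fall from 4 to 8 h was called (-0.73); in cKO it was -0.28 (adjusted p = 0.173), the 8 h value stayed above 0 h by 0.45 (adjusted p = 0.0151; lost without mouse 1 or 3, at 0.0628 and 0.0698, and without TMM scaling, at 0.0596) and the fall from 8 to 24 h was called (-0.51; lost without mouse 1 or 3, at 0.0757 and 0.0517). Whether this later decline differed by genotype was tested only against 0 h, where no interaction in Ctsl was called. Ctsl shares exon bases with an antisense transcript, Gm47123 (1742 of 6489), and with a processed pseudogene, Gm49230 (395). Neither name is among the deposited genes, and whether any Ctsl counts come from them was not tested.

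Ctsz was the protease that gained most. It lies on chromosome 2 (174427493 to 174439039, minus strand) and encodes cathepsin Z (also named X), a carboxypeptidase that removes single residues from the ends of proteins. In WT mice its level was 79.8, 78.7 and 58.4 TPM at 0 h, 113, 100.3 and 98.9 TPM at 4 h, 166, 206 and 163 TPM at 8 h, and after 24 h 248, 250.3 and 254 TPM. In cKO mice it was 89.0, 74.5 and 81.9 TPM, then 107, 92.7 and 84.6, then 159.7, 169 and 161, and 232, 238 and 218 TPM. Each later library of a mouse was higher than the one before it in all 6 mice, and the 0 and 4 h libraries overlapped only in cKO. The log2 change from 0 h was 0.61, 1.46 and 1.84 (SE 0.13 each) at 4, 8 and 24 h in WT and 0.29, 1.12 and 1.56 (SE 0.12 to 0.13) in cKO. At 24 h this is 3.57 times the 0 h level in WT and 2.95 times in cKO. The cKO change at 4 h (adjusted p = 0.0486) was kept in 8 of 17 alternatives, and was lost with DESeq2 (0.0928) and without mouse 1 or 2 (0.148 and 0.28). Without TMM scaling it was 0.12 (0.377), and with limma on log2(TPM + 1) or log2(TPM + 0.1) it was 0.21 (0.0995 and 0.103). The call was lost too with the ribosomal RNA gene Rn45s removed (0.0804), with a filter of 5 CPM in 3 libraries (0.0537) and with only the groups compared (0.0645). At 24 h the WT libraries lay above all cKO libraries, but the difference of -0.13 (SE 0.12) was not called (adjusted p = 1.0). The genes most like Ctsz over the 24 libraries were Cops5, Psmc1 and Sars (r = 0.984, 0.984 and 0.983).

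Ctsc (chromosome 7, 88278085 to 88310888, plus strand), the activator of granzymes, was among the steadiest members. Over all 24 libraries it ranged from 91.6 to 135 TPM, and the ratio of its highest to its lowest library was below that of every other gene of the family. Its WT libraries held 91.6, 104 and 105 TPM at 0 h, with 126, 122 and 126 TPM after 24 h, and its cKO libraries 103, 121 and 111 TPM at 0 h, with 129, 135 and 127 TPM after 24 h. The rise to 24 h was free of overlap and was called in both genotypes, at 0.35 (SE 0.09) in WT and 0.30 (SE 0.09) in cKO. The change at 8 h was 0.22 in WT (adjusted p = 0.0362) and -0.00 in cKO. The WT call was kept in 7 of 17 alternatives. It was lost without mouse 4, 5 or 6 (0.067, 0.142 and 0.0996) and without the 8 h libraries of mice 2 and 5 (0.085). Without TMM scaling the change was 0.07 (0.409), and with limma on log2(TPM + 1) or log2(TPM + 0.1) it was also 0.07 (0.396 and 0.394). The call was lost too with Rn45s removed (0.152), with a filter of 5 CPM in 3 libraries (0.0945) and with only the groups compared (0.0515). Of the granule proteases listed as its substrates 3 of 10 were tested. At 4, 8 and 24 h 2 of the 3 were called higher and 1 lower than at 0 h, in both genotypes. Of all tested genes 59%, 67.4% and 77% were called there in WT, and 57.2%, 65.6% and 76.3% in cKO. Gzmb rose from 0.46 to 354 TPM between 0 and 24 h in WT and from 1.44 to 1013 TPM in cKO, and Gzmb and Gzmc were higher in cKO than in WT at 4, 8 and 24 h (log2 1.77, 1.87 and 1.52 for Gzmb). Between genotypes 0.82%, 0.183% and 0.105% of all tested genes were called at these times. No genotype difference in Ctsc was called, its log2 values being 0.12, -0.03, -0.11 and 0.07 at the 4 times. At 24 h its cKO libraries all lay above its WT libraries.

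Lgmn (chromosome 12, 102394084 to 102439813, minus strand) was barely detected. Legumain had 2 to 35 counts per library and 297 in all, and its levels were 0.24 to 3.16 TPM. Its cKO libraries held 2.36, 1.35 and 0.67 TPM at 0 h, with 0.52, 0.24 and 0.60 TPM after 8 h, a log2 change of -1.61 (SE 0.61; adjusted p = 0.0207) that was lost without mouse 1 (0.217), mouse 2 (0.112) or the 8 h libraries of mice 2 and 5 (0.0929). The later rise to 1.21, 1.08 and 1.55 TPM at 24 h (1.45, SE 0.62, adjusted p = 0.0437) was lost without any of the 3 cKO mice (0.0892, 0.154 and 0.0993), without the 8 h libraries of mice 2 and 5 (0.148) and with DESeq2 (0.0534). The SE of its log2 genotype differences was 0.47 to 0.65, and none of them was called.

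The cystatins fell and then rose. Cst7 (chromosome 2, 150570415 to 150578944, plus strand), the lysosomal inhibitor of cathepsin C, had 182, 167 and 175 TPM at 0 h in WT, 97.6, 94.7 and 98.6 TPM at 4 h, 213, 246 and 210.0 TPM at 8 h, and after 24 h 295, 279 and 284 TPM. In cKO it had 220.5, 186 and 163 TPM, then 129, 147 and 125, then 264, 295 and 233, and 303, 311 and 288 TPM. Its 4 h libraries were the lowest of each mouse and its 24 h libraries the highest. The log2 change from 0 h was -0.77, 0.50 and 0.75 (SE 0.12 each) at 4, 8 and 24 h in WT, and -0.43, 0.59 and 0.73 (SE 0.12 each) in cKO. The step from 4 to 8 h was 1.27 in WT and 1.03 in cKO. The WT rise at 8 h was lost without mouse 5 (adjusted p = 0.0579) and the cKO fall at 4 h without mouse 1 (0.13). The WT step from 8 to 24 h was 0.25 and not called (adjusted p = 0.0637), but it was called in 13 of 17 alternatives, with log2 values of 0.14 to 0.45 and adjusted p of 0.000392 to 0.433 over all of them; it was 0.26 (0.0418) with mouse as a block, 0.34 (0.0193) with DESeq2, and was also called without mouse 2 (0.0468), mouse 3 (0.00228), mouse 5 (0.0117) or the 8 h libraries of mice 2 and 5 (0.00168). The cKO step, 0.14, was called without those 8 h libraries (0.0275), with no filter on low counts (0.0469) and without TMM scaling (0.0225).

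At 4 h Cst7 was less reduced in cKO, with all 3 cKO libraries above all 3 WT libraries and a log2 difference of 0.42 (SE 0.13). This did not pass the test over all genes (adjusted p = 0.111). It was called in 5 of 17 alternatives: no filter on low counts (0.0158), limma on log2(TPM + 1) (0.0139) and on log2(TPM + 0.1) (0.0171), without mouse 3 (0.0459) and without the 8 h libraries of mice 2 and 5 (0.0353), while the highest adjusted p was 0.383. The interaction of Cst7 at 4 h against 0 h was 0.33 and was not called. The ratio of Cst7 to Ctsc TPM was 1.71 ± 0.378 in cKO and 1.75 ± 0.21 in WT at 0 h, 1.39 ± 0.111 and 1.02 ± 0.0876 at 4 h, 2.59 ± 0.075 and 2.12 ± 0.238 at 8 h and 2.31 ± 0.0411 and 2.30 ± 0.0478 at 24 h. The genotype means of this ratio were apart by more than their SDs at 4 and 8 h and by less at 0 and 24 h, and the ratio was not tested.

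Cst3 (chromosome 2, 148871722 to 148875692, minus strand), the secreted cystatin C, moved the same way over a smaller range. WT libraries held 154, 144 and 149.6 TPM at 0 h, 91.4, 101 and 94.9 TPM at 4 h, 105, 108 and 97.0 TPM at 8 h, and after 24 h 167, 161 and 154 TPM; the cKO means were 158, 96.8, 105 and 168 TPM. Every 4 and 8 h library lay below every 0 and 24 h library. The fall at 4 h was 0.57 (SE 0.12) on the log2 scale in WT and 0.64 (SE 0.12) in cKO, and values at 24 h were 0.14 and 0.16 relative to 0 h, not called. The WT fall at 8 h (-0.40) was lost without mouse 4 (adjusted p = 0.061). Log2 genotype differences in Cst3 were -0.04 to 0.06 and none was called.

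**Figure D3:**
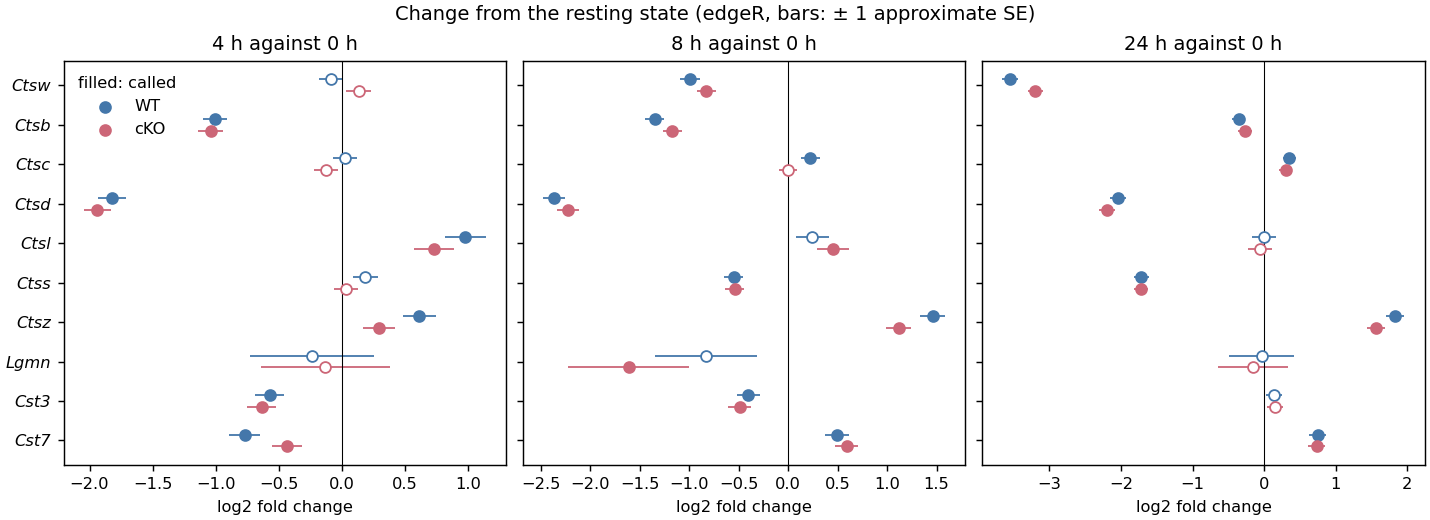
Fitted log2 change from 0 h at 4, 8 and 24 h for each gene in WT and cKO cells, with bars of 1 approximate SE and filled points where called; the 3 panels share the 0 h libraries and have axes of their own. Ctsd is lowest at 4 h and 8 h and Ctsw at 24 h (-3.55 in WT), and Ctsz is highest at 8 and 24 h (1.84 in WT at 24 h).

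Counted together, 6 of the 10 genes were called between 0 and 4 h in WT, 2 higher and 4 lower, where 59% of all tested genes were called. Between 0 and 8 h it was 3 higher and 5 lower (67.4% of all tested genes), and between 0 and 24 h 3 higher and 4 lower (77%). In cKO the counts were 2 higher and 4 lower at 4 h (57.2%), 3 higher and 6 lower at 8 h (65.6%) and 3 higher and 4 lower at 24 h (76.3%). The 8 h counts, 8 of 10 in WT and 9 of 10 in cKO, ran from 6 to 8 and from 7 to 9 over the alternatives, so the members' shares are not set apart from those of all genes. From 4 to 8 h the count was 2 higher and 5 lower in WT (41.6%) and 2 higher and 3 lower in cKO (40.4%), and from 8 to 24 h it was 4 higher and 2 lower in WT (58.7%) and 5 higher and 3 lower in cKO (57.3%). The comparisons of 4, 8 and 24 h with 0 h share the 0 h libraries of their genotype. With library sizes in place of TMM scaling the cKO split at 4 h became 1 higher and 5 lower (1 and 4 with DESeq2) and that from 4 to 8 h 2 and 2. The WT split from 8 to 24 h became 6 higher and 2 lower without TMM scaling and with DESeq2, with Ctsc and Cst7 gained, and over all alternatives 4 to 8 members were called there. Without TMM scaling the median of all genes from 8 to 24 h in WT moved from -0.12 to 0.06, and the median of all genes between 0 and 4 h in WT moved from -0.04 to -0.21.

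The make-up of the family's RNA turned over between 0 and 24 h. Ctsw made up 33.5 ± 1.23% of the summed TPM of the 10 genes in cKO and 31.4 ± 0.275% in WT at 0 h, 46.1 ± 1.85% and 38.2 ± 1.24% at 4 h, 27.5 ± 1.62% and 22.5 ± 1.13% at 8 h, and 6.17 ± 0.691% and 4.12 ± 0.229% at 24 h. Ctsd went from 23.0 ± 0.593% at 0 h to 8.58 ± 0.224% at 24 h in WT, whereas Ctsz went from 4.19 ± 0.646% to 23.0 ± 0.505% and Cst7 from 10.1 ± 0.444% to 26.3 ± 0.52%. The 8 proteases together fell from 1400 ± 24.7 TPM at 0 h to 643 ± 1.92 TPM at 24 h in WT and from 1661 ± 150.0 to 662 ± 26.3 TPM in cKO. The 2 cystatins rose from 324 ± 13.2 to 447 ± 13.4 TPM in WT and from 348 ± 24.3 to 468.5 ± 15.4 TPM in cKO. These sums were not tested.

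**Figure D4:**
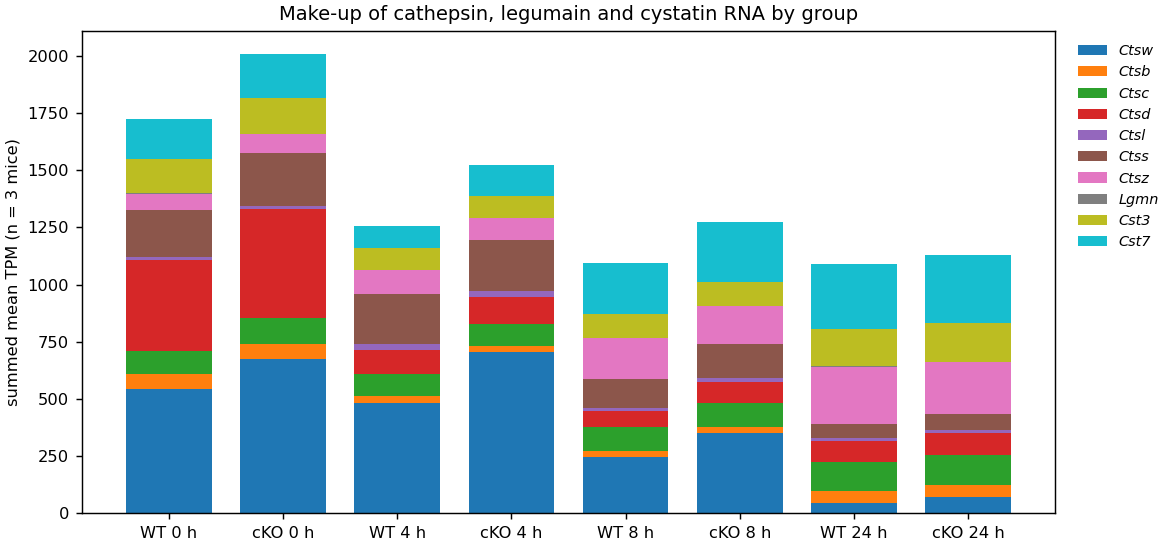
Stacked bars of mean TPM (n = 3 mice) of the 10 genes in each of the 8 groups, starting at 0. Ctsw and Ctsd fill most of the bars at 0 h, and Cst7, Ctsz and Cst3 most of the bars at 24 h.

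Most other genes of the family were below the filter. Of 19 further cathepsin genes 3 passed the filter, all of which were called lower at 24 h than at 0 h in WT. In that comparison 77% of all tested genes were called, 4597 of them lower. Ctsa, encoding a serine carboxypeptidase, fell from 145 to 25.4 TPM (log2 -2.46, SE 0.11), Ctso from 26.5 to 3.08 TPM (-3.06, SE 0.19) and Ctse from 8.53 to 1.11 TPM (-2.89, SE 0.31). At 4 h, however, 1 of the 3 was called higher and 2 lower than at 0 h, in each genotype. Of all tested genes 59% in WT and 57.2% in cKO were called there. edgeR, DESeq2 and limma called none of the 3 between genotypes at any time, and none had an unadjusted p under 0.05. Of 22 further cystatin genes 19 were in the files and 2 were tested: Cstb, a cytosolic cystatin, was 0.27 higher at 24 h than at 0 h in WT (adjusted p = 0.0496) at 101 and 119.9 TPM, and Cst6 had 38 counts in WT at 0 h and none at 24 h.

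A list of 40 lysosomal hydrolases, cofactors and membrane proteins was all tested, and at 24 h in WT 7 were higher and 26 lower than at 0 h, with a median of -0.92 against -0.08 for all tested genes, of which 77% were called, 4231 higher and 4597 lower. Among the smallest adjusted p-values were those of Laptm5 (-2.56), Npc2 (-2.05) and Psap (-1.95), which encode a lysosomal membrane protein, a cholesterol carrier and the saposin precursor. In cKO 7 were higher and 27 lower, with a median of -0.90. Ctsd, Ctsw and Ctss fell like most of this list, and Ctsz did not. Of 17 vacuolar ATPase subunits, which acidify lysosomes, 6 were higher and 6 lower at 24 h in WT (median 0.01), among them Atp6v1a (1.22) and Atp6v1d (-1.38). Of 11 tested genes for lysosomal sorting and MiT/TFE factors 3 were higher and 5 lower at 24 h in WT. The share called, 12 of 17 and 8 of 11, was in both lists below that of all tested genes. M6pr, the cation-dependent mannose 6-phosphate receptor, had risen by 1.95 (SE 0.09) at 4 h, from 177 to 641 TPM in WT, and Tfe3 by 1.34 (SE 0.15). edgeR called none of the hydrolase, ATPase or sorting genes between genotypes at any time. For the 40 hydrolases, 1, 4, 6 and 0 had an unadjusted p under 0.05 in edgeR at 0, 4, 8 and 24 h. Of all 11470 tested genes 845, 1354, 1139 and 423 had one at these times. For the hydrolases DESeq2 called 0, 1, 1 and 0, and limma called none. For the 17 ATPase subunits 1, 1, 4 and 0 and for the 11 sorting genes 1, 3, 1 and 1 had an unadjusted p under 0.05, and neither DESeq2 nor limma called any.

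**Figure D5:**
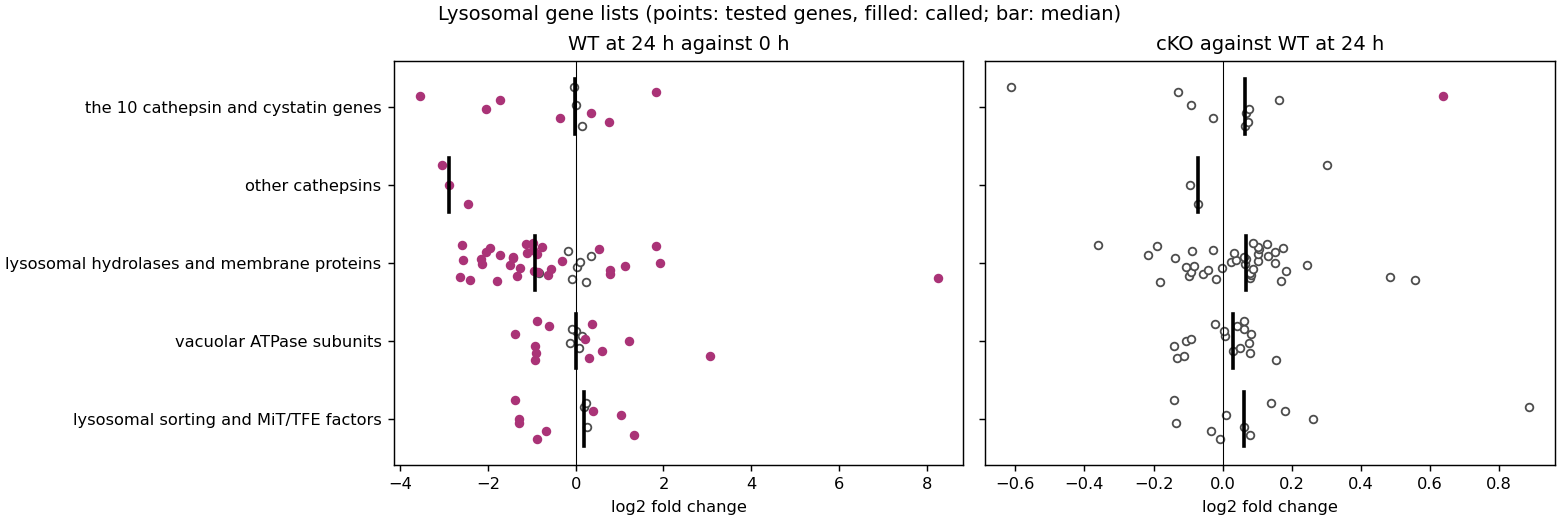
Fitted log2 changes of all tested genes of 5 lists, for WT at 24 h against 0 h on the left and cKO against WT at 24 h on the right, each on its own axis; filled points were called and bars are list medians. On the left the 40 hydrolases and membrane proteins lie mostly below 0 (median -0.92), and on the right Ctsw (0.64) is the filled point; the far right point on the left panel is Cd63, chosen for mention after its value was seen, which had no count in WT at 0 h, so that its fitted value is no measure of size.

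Class II presentation genes, partners of cathepsin S in other cells, were low: 5 of 10 were tested, and H2-Ob, H2-DMa and H2-Oa fell by 24 h in WT (-5.15, -2.41 and -2.58), while Cd74, the invariant chain, went from 0.607 to 9.35 TPM (4.00, SE 0.45). No class II presentation gene was called between genotypes by edgeR, DESeq2 or limma. In edgeR 1 of 5 had an unadjusted p under 0.05 at 0 h and at 4 h, against 845 and 1354 of all 11470 tested genes. Macrophage or monocyte markers, which would come with cells rich in cathepsins B, L, S and D, summed to 1.13 to 5.23 TPM in all libraries, with Csf1r at most 0.42 TPM and Cd68 at 0.5 to 5.18 TPM. Dendritic cell markers summed to 79.4 to 115 TPM at 0 h and 14.0 to 23.4 TPM at 24 h, of which up to 107 TPM was Ccr9, while at 24 h it was mainly Cd74 and Zbtb46, and H2-Ab1 did not exceed 2.15 TPM. The part of these markers in the fall of Ctss and Ctsd was not tested.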

How the data were processed

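Expression was measured by RNA-seq for CD8+ T cells of 6 mice in 24 libraries. Per the submitters' processing notes, STAR, RSEM and DESeq2 were used with the mouse build mm10; the sources used here give no versions, settings or strand of counting. The deposited tables, per the file headers, give for each library and gene an expected count, RSEM's estimate of its reads, and TPM, a level per transcript length with 1 sum for all libraries. The files' FPKM was not used.

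The 10 genes, the lists of other genes and the named comparisons were chosen with earlier results of these data known, Ctsw's genotype difference among them. All 10 genes are named; of other lists up to 4 called genes with the smallest adjusted p are named per comparison, and the 3 genes most like a member by Pearson correlation. Some genes that this rule selects are not reported here. Expected counts were rounded and fitted in R 4.3.3 with edgeR 4.0.16: filterByExpr over 8 groups, TMM scaling, 1 robust quasi-likelihood model of 8 group means over 24 libraries and 17 contrasts, two-sided, with Benjamini-Hochberg adjustment over 11470 genes per contrast and calls at an adjusted p under 0.05. SE is approximate: |log2 fold change| over the root of the F statistic. Levels are TPM, with mean ± SD over 3 mice. Overlap of libraries is given as description only, since its share over all tested genes was not counted. By CPM alone, Lgmn at 4 h and Cst7 at 24 h were also free of overlap between genotypes, and neither was called. Alternatives used DESeq2 1.42.0, limma 3.58.1 on log2(TPM + 1) and log2(TPM + 0.1), other filters and scalings, only the groups compared, removal of Rn45s (a ribosomal RNA gene with 7.39 to 20.6% of counts), each mouse left out, and a replicate block. Leaving out the 4 h library of mouse 3, or the 8 h libraries of mice 2 and 5, was chosen after seeing the data.

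Libraries with the same mouse number come from the same animal, per the labels. Their deviations from group means correlated at -0.085 to 0.16 (median 0.018, 36 pairs). Smart-seq2 has no molecular identifiers, and the precision of a low gene such as Lgmn is set by its counts. In simulated counts for cKO against WT at 0 h over 11294 genes, 87% of 100 genes changed 2-fold were recovered. Another 100 genes were changed 4-fold there, and of 193 genes called 9 were unchanged ones. The changed genes were drawn only from genes above a minimum level that Lgmn does not reach, and no change below 2-fold was simulated. This rate therefore does not describe Lgmn, or the Ctsw genotype differences of 1.22 to 1.56 times. Gene positions and exon overlaps are from GENCODE on GRCm38, the assembly of mm10. Promoters are RefSeq GRCm38.p6, matched by symbol for 8 of 10 genes.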

Additional observations from a re-analysis of the deposited data

How the results depend on the processing

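Of 170 values (10 genes in 17 comparisons) 72 were called; 54 of these were kept in all alternatives and 18 were lost in at least 1, no called value changed sign, and 15 others were called only in an alternative. Of the 83 values called in no setting, 33 changed sign in at least 1. The number of members called between genotypes was 0 at 0 h and 1 at 4, 8 and 24 h. With no filter on low counts it was 1 at 0 h, 2 at 4 h and 2 at 8 h. At 4 h it was 2 with limma on log2(TPM + 1) or log2(TPM + 0.1) and 2 without the 8 h libraries of mice 2 and 5; at 8 h it was 0 with only the groups compared and 2 without those libraries. Leaving out each mouse in turn gave 0 to 1 members at 0, 8 and 24 h, and at 4 h 0 to 2 members. The replicate block changed the call of 1 value, Cst7 between 8 and 24 h in WT (0.26, adjusted p = 0.0418, against 0.0637), and no other. For comparisons over time and interactions it was a term for each mouse in the edgeR model. Each mouse has only 1 genotype, so genotype comparisons could not be paired by mouse. They used limma with voom weights and a correlation among libraries of 1 mouse, estimated at -7.03e-05. Over all genes the calls between genotypes were less stable: 51, 94, 21 and 12 at 0, 4, 8 and 24 h ranged over 21 to 136, 32 to 249, 7 to 135 and 6 to 100, and the interactions, 1, 1 and 2, over 0 to 45, 1 to 34 and 1 to 21. The cause of these shifts was not tested. Lgmn is limited by depth, at 2 to 35 counts per library; in 1 or 2 alternatives it did not pass the filter and has no value.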
